A study of Mus musculus with 20 samples.

Results

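The genes described here are 7 nuclear genes with products in the mitochondrion, chosen by name from the gene count table. Apart from the protease Lonp1, they are known as respiratory chain isoforms used at different oxygen levels or in different tissues. The genes are the complex IV subunit Ndufa4 and its relative Ndufa4l2, the subunit pairs Cox4i1 with Cox4i2 and Cox7a2 with Cox7a1, and the mitochondrial protease Lonp1. They are 7 of the 54532 genes in the table, and all 7 were among the 15354 genes with enough reads to be tested. The data are bulk poly(A) RNA sequencing of 10 kidney tumors and of 10 normal kidney regions from the Cre-less AAV model, in which the kidneys of mice are injected with an adeno-associated virus (AAV) that encodes sgRNAs against Vhl, Pbrm1, Keap1 and Tsc1. All 20 samples came from LSL-Cas9/+; Pax8 Cre/+ mice on a C57BL/6 background, taken from the same 10 mice, which were injected as young adults and whose age at tissue collection is not given in the sources used here. Cas9 and GFP in these mice follow Cre under Pax8, a gene of renal tubule cells, so the normal kidney regions carried the same alleles as the tumors. Whether the virus had reached these regions is not given in the sources used here. Tumors and normal kidneys are bulk tissue, in which fewer cells of a type and less RNA per cell cannot be told apart.

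Complex IV, or cytochrome c oxidase, passes electrons to oxygen at the end of the respiratory chain. It has a core of 3 subunits made in the mitochondrion and a shell of subunits made from nuclear genes, several of which exist as a broadly used isoform and an alternative one. Cox4i2 and Ndufa4l2 are known as the forms raised at low oxygen, and Cox7a1 as the form of heart, skeletal muscle and brown fat. Loss of the Vhl product stabilizes the hypoxia-inducible factors (HIFs), whose known targets include Ndufa4l2, Cox4i2 and Lonp1. The Lonp1 protease degrades matrix proteins and is known to remove the Cox4i1 protein at low oxygen.

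Between 14737516 and 26679704 reads were counted in a normal kidney library, and between 18447394 and 24902973 in a tumor library. Levels are given as CPM, read counts relative to library sizes that were scaled by the trimmed mean of M-values (TMM), and tests are edgeR quasi-likelihood tests with Benjamini-Hochberg adjustment over all genes tested. Of the tested genes, 23.6% were called higher in tumors and 23.8% lower at an adjusted p under 0.05, and of the 7 genes 2 were called higher (28.6%) and 2 lower (28.6%), near those shares. With normal kidney 9, a library described next, left out, 26.1% of 15520 tested genes were called higher and 25.8% lower. With library totals in place of the TMM scaling, 2850 genes were called higher and 4554 lower, against 3631 and 3661 with it, and the median over all genes of the log2 fold change moved from -0.021 to -0.141. Every tumor lay above every normal kidney for 5.87% of genes and below every normal kidney for 4.74%. Normal kidney 9 stood apart from the other normal kidneys. Its genes of at most 1350 bases had a median 1.14 above the group median on the log2 scale, its genes of at least 9484 bases one of -1.15, and its TMM factor was 0.749, against factors from 0.881 to 1.14 in the other libraries. It held the highest level of 6 of the 7 genes among normal kidneys, so results are also given without it. The targeted genes gave no check of editing, since small edits need not change a transcript level. Vhl transcripts lay between 12.3 and 28.6 CPM in tumors and between 21.6 and 28.8 CPM in normal kidneys. Markers of the thick ascending limb and distal tubule summed to between 0.449 and 8.58 CPM in tumors and between 3900 and 9040 CPM in normal kidneys. The sum of proximal tubule markers overlapped (840 to 8520 CPM in tumors, 1100 to 8580 CPM in normal kidneys). Of these 6 markers 5 did not pass the test. The other, Slc5a2, fell from a mean of 230 CPM to 19.8 CPM (log2 fold change -3.54, adjusted p = 2.29e-05).

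Promoter sequences around the start site were at hand for 4 of the 7 genes (RefSeq, build GRCm38.p6), from 250 bases before the start to 50 bases after it. They are shown because Lonp1 rose and Ndufa4 fell in tumors, and because the balance of Cox7a1 and Cox7a2 differed between the groups. Capitals mark the core of the HIF binding motif, ACGTG or GCGTG, read on either strand. Ndufa4l2, Cox4i1 and Cox4i2 had no entry.
Lonp1, chr17:56626854-56627153, minus strand: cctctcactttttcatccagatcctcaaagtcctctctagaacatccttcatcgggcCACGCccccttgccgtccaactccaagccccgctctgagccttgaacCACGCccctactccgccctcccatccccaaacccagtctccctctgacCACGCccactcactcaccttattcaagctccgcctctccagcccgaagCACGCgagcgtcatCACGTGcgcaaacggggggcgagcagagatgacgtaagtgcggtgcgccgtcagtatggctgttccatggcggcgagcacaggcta
Ndufa4, chr6:11907401-11907700, minus strand: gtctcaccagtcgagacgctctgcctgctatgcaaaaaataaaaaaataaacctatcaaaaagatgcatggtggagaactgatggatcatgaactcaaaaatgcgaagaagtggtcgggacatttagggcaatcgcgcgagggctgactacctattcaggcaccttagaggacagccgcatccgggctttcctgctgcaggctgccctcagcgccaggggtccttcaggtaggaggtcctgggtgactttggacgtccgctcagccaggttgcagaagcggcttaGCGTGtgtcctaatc
Cox7a1, chr7:30183921-30184220, plus strand: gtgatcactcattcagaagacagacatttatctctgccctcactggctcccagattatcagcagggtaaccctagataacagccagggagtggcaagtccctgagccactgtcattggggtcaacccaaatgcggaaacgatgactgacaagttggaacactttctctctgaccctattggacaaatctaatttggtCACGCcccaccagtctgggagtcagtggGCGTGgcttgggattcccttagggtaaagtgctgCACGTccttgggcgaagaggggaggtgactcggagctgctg
Cox7a2, chr9:79759804-79760103, minus strand: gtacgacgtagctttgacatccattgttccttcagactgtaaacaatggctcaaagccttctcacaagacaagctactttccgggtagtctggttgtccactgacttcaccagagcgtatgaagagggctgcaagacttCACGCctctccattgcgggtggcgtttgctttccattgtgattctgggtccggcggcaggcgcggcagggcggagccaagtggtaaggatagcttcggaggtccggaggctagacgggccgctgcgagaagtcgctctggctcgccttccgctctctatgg
The Lonp1 window held ACGTG on both strands, at positions -36 and -35 from the start site, which together form the palindrome CACGTG. It also held GCGTG on the opposite strand at -193, -146, -98 and -50. The Ndufa4 window held 1 GCGTG at position 36 after the start, the Cox7a2 window 1 at -111, and the Cox7a1 window 2 of GCGTG at -53 and -25 with 1 ACGTG at 10. Of the 32851 promoter windows in the table, 19.6% held ACGTG, 32.4% held GCGTG and 43.8% held at least one of them. The core of the antioxidant response element, TGACNNNGC, which the Keap1-controlled factor Nrf2 is known to bind, was found in the Lonp1 window at -102, where it overlaps a GCGTG, and at 9 on the opposite strand. It was in none of the other 3 windows and in 12.4% of all windows.

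Ndufa4l2 was the gene of the set with the largest difference. Its product resembles Ndufa4 and is known to lower complex I activity when HIF is active. The gene (ENSMUSG00000040280) lies at chr10:127514967-127517154 on the plus strand of mm10. In normal kidneys it was at 1.19 CPM at the lowest, 3.43 CPM at the median and 5.09 CPM at the highest, on 24 to 96 reads per library. In tumors the lowest value was 35.0 CPM, the median 161 CPM and the highest 401 CPM. The groups did not overlap, and the lowest tumor, tumor 2, was still far above the highest normal kidney. The mean was 161.4 ± 93.6 CPM for the tumors against 3.42 ± 1.17 CPM for the normal kidneys (± SD, n = 10 per group). The level was thus 47.2-fold higher in tumors, with a log2 fold change of 5.56 (SE 0.354, adjusted p = 8.46e-11). It was also the gene with the widest range among tumors after Cox4i2 by coefficient of variation (58.0% against 63.7%), with tumor 6 at the top and tumor 2 at the bottom, 11.5-fold apart. The last 32 bases of its exons overlap the serine hydroxymethyltransferase gene Shmt2 on the other strand, which rose by 2.10 on the log2 scale (adjusted p = 1.9e-08). Whether the counting used strand is not given in the sources used here, so reads in this stretch could belong to either gene.

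Ndufa4, the form built into complex IV in normal tissue, moved the other way. It (ENSMUSG00000029632, chr6:11900292-11907497, minus strand) lay between 92.5 and 152.7 CPM in tumors (median 139 CPM) and between 224 and 1097 CPM in normal kidneys (median 294 CPM). Every tumor was below every normal kidney. The log2 fold change was -1.47 (SE 0.247, adjusted p = 4.6e-05). The 1097 CPM belonged to normal kidney 9. The other 9 normal kidneys had a mean of 281.7 ± 34.9 CPM against 130.7 ± 21.4 CPM in tumors, and without that library the log2 fold change was -1.12 (adjusted p = 2.53e-08, edgeR).

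**Figure D1:**
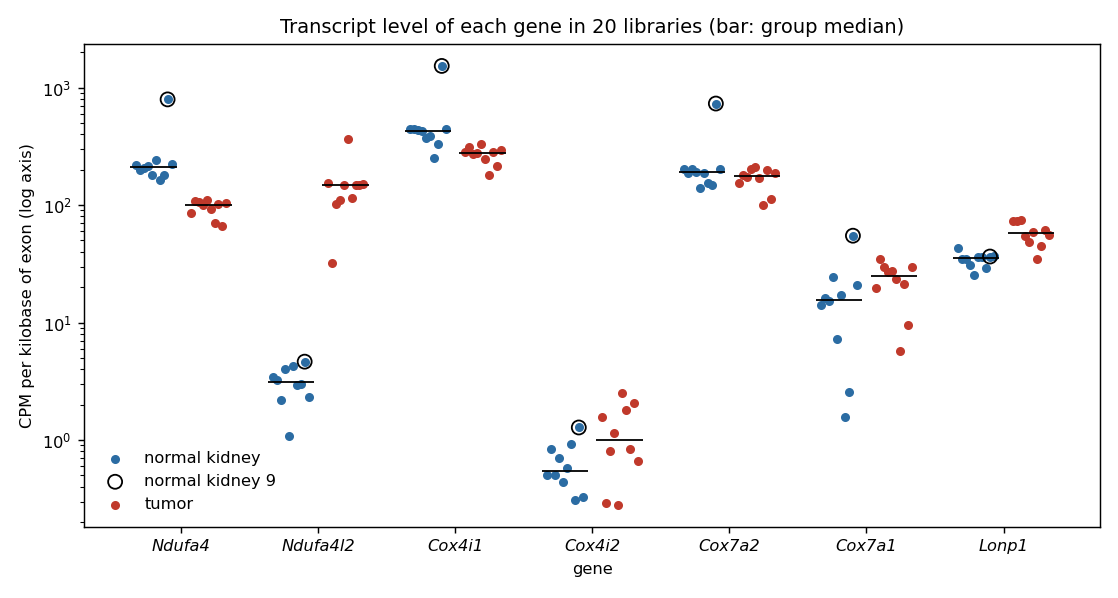
Transcript level of each of the 7 genes in the 20 libraries, as CPM per kilobase of exon on a log axis; points are libraries, bars are group medians, and the circled points are normal kidney 9. Ndufa4l2 sat between 35.0 and 401 CPM in tumors and at no more than 5.09 CPM in normal kidneys before division by its length, while Cox7a1 and Cox7a2 overlapped between the groups.

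Set against each other per length, Ndufa4l2 went from a minor to the major transcript of the pair. It made up between 0.582% and 1.83% of Ndufa4l2 and Ndufa4 transcripts in normal kidneys (median 1.55%) and between 22.9% and 79.9% in tumors (median 59.2%). It exceeded Ndufa4 in 8 of 10 tumors. The exceptions were tumor 2 (22.9%) and tumor 3 (49.1%). This count depends on the division by exon length, since tumor 4 had fewer reads of Ndufa4l2 (2795) than of Ndufa4 (3206). The log2 ratio was 0.45 ± 0.96 in tumors and -6.30 ± 0.64 in normal kidneys, a difference of 6.75 (two-sided permutation test over libraries, p = 2e-05, the smallest that 100000 resamples can give; 6e-05 after adjustment over 3 ratios).

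Cox4i1 is the broadly used form of the subunit through which ATP is known to slow complex IV. The gene (ENSMUSG00000031818, chr8:120668222-120674207, plus strand) was the most abundant of the set per length in both groups. It lay between 281 and 512 CPM in tumors and between 388 and 2370 CPM in normal kidneys, with medians of 432 and 669 CPM. Only tumor 7, tumor 9 and tumor 6 were below every normal kidney. The log2 fold change was -0.91 (SE 0.252, adjusted p = 0.00529). Its size rested in part on normal kidney 9, at 2370 CPM. Without this library the log2 fold change was -0.55 (adjusted p = 0.00066), with 417 ± 68.4 CPM in tumors and 609 ± 104 CPM in the other 9 normal kidneys. Its exons share 154 bases with Emc8 on the other strand, a gene with a log2 fold change of -0.25 (adjusted p = 0.0189).

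Cox4i2, the form known for low oxygen and for lung and vessel-wall cells, was scarcely detected. The gene (ENSMUSG00000009876, chr2:152754173-152765037, plus strand) had 4 to 40 reads in a tumor and 5 to 20 in a normal kidney. Its level was 0.942 ± 0.600 CPM in tumors, from 0.221 CPM in tumor 5 to 1.98 CPM in tumor 6 (median 0.784 CPM), and 0.505 ± 0.237 CPM in normal kidneys, from 0.244 to 1.01 CPM (median 0.428 CPM). The groups overlapped, with 4 tumors above every normal kidney and 2 below every one. The log2 fold change of 0.90 (SE 0.374) did not pass the test over all genes (adjusted p = 0.0526). It passed without normal kidney 7, normal kidney 9, tumor 2, tumor 5 or tumor 10 (adjusted p between 0.0238 and 0.0438), and it did not pass without any other single library. The ratio to Cox4i1, which also takes in the fall of Cox4i1, differed between the groups, but the share stayed small. Cox4i2 made up 0.0746% to 0.369% of the pair per length in normal kidneys (median 0.117%) and 0.085% to 0.999% in tumors (median 0.356%), and 5 of 10 tumors lay above every normal kidney. The log2 ratio differed by 1.42 between tumors (-8.06 ± 1.26) and normal kidneys (-9.48 ± 0.65; permutation test, p = 0.00572, the same after adjustment over 3 ratios). This p is not comparable with that of Cox4i2 alone, which was adjusted over 15354 genes and was 0.0253 before adjustment (edgeR).

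Cox7a2 is the broadly used form of a small subunit at the contact between complex IV and its partners. It (ENSMUSG00000032330, chr9:79755361-79759878, minus strand) was at 94.1 to 201 CPM in tumors (median 167 CPM) and 132 to 691 CPM in normal kidneys (median 179 CPM). The log2 fold change of -0.47 (SE 0.261) did not pass the test (adjusted p = 0.147). Without normal kidney 9 it was -0.09 (adjusted p = 0.573).

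Cox7a1, its muscle and brown fat counterpart, was the most variable of the set among normal kidneys. The gene (ENSMUSG00000074218, chr7:30184144-30186078, plus strand) lay between 0.840 CPM in normal kidney 7 and 29.35 CPM in normal kidney 9, a 34.9-fold range with a median of 8.38 CPM. In tumors it lay between 3.07 CPM in tumor 7 and 18.6 CPM in tumor 2, with a median of 13.5 CPM and a mean of 12.2 ± 4.92 CPM. The mean of the normal kidneys was 9.31 ± 8.09 CPM, and the groups overlapped. The log2 fold change of 0.40 (SE 0.451) did not pass the test (adjusted p = 0.493), nor did that of 0.78 without normal kidney 9 (adjusted p = 0.124). The Cox7a1 share of the pair, which compares both genes within 1 library, was 6.52 ± 3.24% in normal kidneys and 11.4 ± 3.14% in tumors. Of 10 tumors, 6 had a share above every normal kidney. The log2 ratio was 1.11 higher in tumors (permutation test, p = 0.00472; 0.00572 adjusted over 3 ratios).

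**Figure D2:**
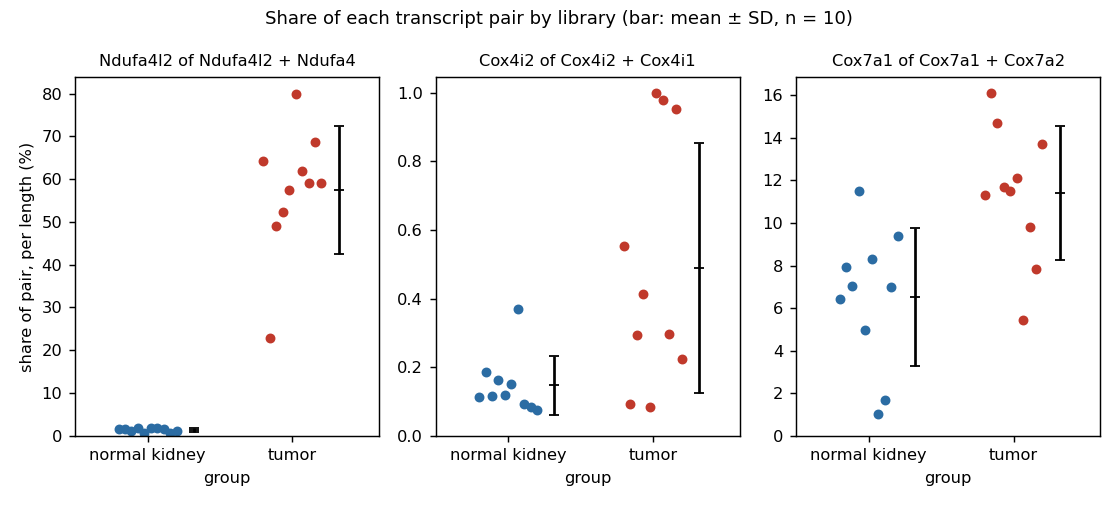
Share of Ndufa4l2, Cox4i2 and Cox7a1 within its transcript pair, per length, in percent; each point is a library and the bars are mean ± SD of 10 libraries. Each panel has its own scale, since Ndufa4l2 reached 79.9% of its pair, Cox7a1 16.1% and Cox4i2 0.999%.

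The tissues that are known for Cox7a1 were measured with marker lists. Of 6 skeletal and heart muscle markers only the actin gene Acta1 had enough reads to be tested. It rose by 5.28 on the log2 scale (adjusted p = 1.18e-09, 10.4 CPM against 0.263 CPM), while the muscle creatine kinase Ckm had a mean of 0.0775 CPM in tumors and the myosin Myh7 was at 0 in all 10 tumors. The actinin gene Actn2 had a mean of 0.539 CPM in normal kidneys against 0.00427 CPM in tumors. The summed muscle markers lay between 4.41 and 24.8 CPM in tumors, of which Acta1 made up at least 86.9% in each tumor, and between 0.438 and 2.51 CPM in normal kidneys. The other 5 markers summed to at most 2.13 CPM in a tumor and 2.39 CPM in a normal kidney. The brown fat genes Ucp1 and Cidea, a mitochondrial proton channel and a lipid droplet protein, had means of 11.2 and 5.31 CPM in normal kidneys and of 0.0445 and 0.111 CPM in tumors. The 5 fat markers summed to between 0.44 CPM, in normal kidney 9, and 111 CPM in normal kidneys and to between 1.29 and 163 CPM in tumors. The 3 normal kidneys with the lowest Cox7a1 (normal kidney 7, 8 and 5, at 0.840, 1.37 and 3.92 CPM) had the 3 lowest sums of proximal tubule markers, at 1102, 2288 and 1795 CPM. They also had the 3 lowest sums of collecting duct markers, at 184.6, 290.2 and 276.5 CPM. Normal kidney 9, with the highest Cox7a1, had the highest collecting duct sum, 1234 CPM, but a proximal tubule sum of 3411 CPM, below those of most normal kidneys. Tumor 7 and tumor 9 held the 2 lowest levels of Ndufa4, Cox4i1, Cox7a2 and Cox7a1 among tumors. These were also the tumors with the 2 highest sums of fibroblast markers, 3686 and 394.1 CPM, and of endothelial markers, 677.7 and 681.5 CPM. The same held for macrophage markers (1009 and 578.1 CPM), smooth muscle markers (763.7 and 213.7 CPM) and fat markers (162.9 and 53.62 CPM). It did not hold for the remaining marker lists. The part of these cells in the levels was not tested.

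Lonp1 rose. This protease (ENSMUSG00000041168, chr17:56614297-56626887, minus strand) lay between 111 and 188 CPM in normal kidneys (median 155 CPM) and between 153 and 326 CPM in tumors (median 252 CPM). All tumors but tumor 7, at 153 CPM, were above every normal kidney. The log2 fold change was 0.75 (SE 0.133, adjusted p = 8.49e-05), with 253 ± 57.4 CPM against 150 ± 21.3 CPM. Unlike the subunit genes it was not raised in normal kidney 9 (160 CPM), and the log2 fold change without that library was again 0.75.

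Per kilobase of exon, the order of levels in normal kidneys was Cox4i1 (506 ± 365), Ndufa4 (263 ± 188), Cox7a2 (234 ± 176), Lonp1 (34.4 ± 4.86), Cox7a1 (17.4 ± 15.1), Ndufa4l2 (3.13 ± 1.07) and Cox4i2 (0.641 ± 0.301 CPM per kilobase). In tumors it was Cox4i1 (269 ± 44.1), Cox7a2 (169 ± 37.8), Ndufa4l2 (147 ± 85.5), Ndufa4 (94.6 ± 15.5), Lonp1 (57.9 ± 13.1), Cox7a1 (22.9 ± 9.20) and Cox4i2 (1.20 ± 0.762 CPM per kilobase). Within single libraries the order of neighbours held in all 10 libraries of a group, except that Cox7a2 exceeded Ndufa4l2 in 7 tumors, Ndufa4l2 exceeded Ndufa4 in 8 tumors, Lonp1 exceeded Cox7a1 in 9 normal kidneys and Cox7a1 exceeded Ndufa4l2 in 8 normal kidneys. In means, 5 steps of the order were smaller than the larger SD of the 2 neighbours: Cox7a2 to Ndufa4l2 and Ndufa4l2 to Ndufa4 in tumors, and Cox4i1 to Ndufa4, Ndufa4 to Cox7a2 and Cox7a1 to Ndufa4l2 in normal kidneys.

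Cells of the vessel wall (mural cells, that is pericytes and smooth muscle) are known to express Ndufa4l2, Cox4i2 and Cox7a1, so 9 mural markers were set beside these genes. Of the 9, 4 rose (44.4%) and 0 fell, beside 23.6% and 23.8% of all genes. The risers were the proteoglycan gene Cspg4 (log2 fold change 3.60, adjusted p = 1.56e-09), the potassium channel genes Kcnj8 (1.28) and Abcc9 (0.80), and the adhesion gene Mcam (0.93). Rgs5, Pdgfrb, Notch3, Higd1b and Des did not pass the test. Their log2 fold changes went both ways, with Rgs5 at 0.47, Notch3 at 0.60 and Higd1b at 0.96, and with Pdgfrb at -0.51 and Des at -0.68. Rgs5 was at 91.1 CPM in tumors against 65.6 CPM in normal kidneys, and Pdgfrb at 35.8 CPM against 50.9 CPM. Higd1b passed as well once normal kidney 9 was left out (1.75, adjusted p = 0.000214, against 0.96 and 0.103 with it), so that 5 of 9 mural markers rose. The summed mural level was 350 to 1030 CPM in tumors (median 568 CPM) and 178 to 287 CPM in normal kidneys (median 239 CPM). Cspg4 alone made up between 19.2% and 75.4% of it in tumors (median 60.6%) and between 5.05% and 18.0% in normal kidneys (median 11.4%). The mean of Cspg4 was 347 CPM in tumors against 28.6 CPM in normal kidneys, so much of the higher sum was this 1 gene. Of the 6 smooth muscle markers 0 passed the test. Of the other markers, 3 of 5 for macrophages rose and 0 fell, 1 of 6 for endothelial cells rose (Cdh5), and 1 of 5 for fibroblasts fell (Pdgfra). All 5 macrophage markers rose without normal kidney 9, with C1qa (1.41) and C1qb (1.35) added, and the endothelial marker Kdr fell (-0.75, adjusted p = 0.00262).

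Across the 10 tumors, Cox4i2 was higher where the mural level was higher (Pearson r = 0.76, permutation p = 0.0108; Spearman rho = 0.81, permutation p = 0.00682). Adjusted over 6 relations, p was 0.0461 for r and 0.0205 for rho. Without the 2 tumors farthest from the median mural level r was 0.60 (permutation p = 0.12), so the test no longer passed. The tumors with the highest Cox4i2, tumor 6, 9, 7 and 1, also held the highest sums of macrophage markers (415, 578.1, 1009 and 402.7 CPM). Only mural markers were tested, so the relation cannot be called particular to them. Cox7a1 went the other way in tumors (r = -0.70, permutation p = 0.0232, adjusted 0.0463; rho = -0.85, permutation p = 0.00271, adjusted 0.0163), with r = -0.68 (permutation p = 0.0606) without the 2 farthest. In normal kidneys Cox7a1 gave r = -0.74 (permutation p = 0.0154, adjusted 0.0461) and rho = -0.55 (permutation p = 0.105, adjusted 0.211), and without the 2 farthest, r was -0.38 (permutation p = 0.368), so that relation rested on those libraries. Ndufa4l2 showed no relation that passed, in tumors (r = 0.15, permutation p = 0.676; rho = 0.16, permutation p = 0.657) or in normal kidneys (r = -0.20, permutation p = 0.567; rho = -0.27, permutation p = 0.449). Nor did Cox4i2 in normal kidneys (r = -0.33, permutation p = 0.36; rho = -0.19, permutation p = 0.609). Without the 2 farthest libraries these 3 gave r = 0.27, 0.10 and -0.14. Without Cspg4 among the markers, a choice made after the data were seen, Cox4i2 in tumors gave r = 0.69 (adjusted permutation p = 0.0577) and Cox7a1 in tumors r = -0.86 (adjusted permutation p = 0.0186). Without tumor 7 and normal kidney 9, Cox4i2 in tumors gave r = 0.74 (adjusted permutation p = 0.0599).

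**Figure D3:**
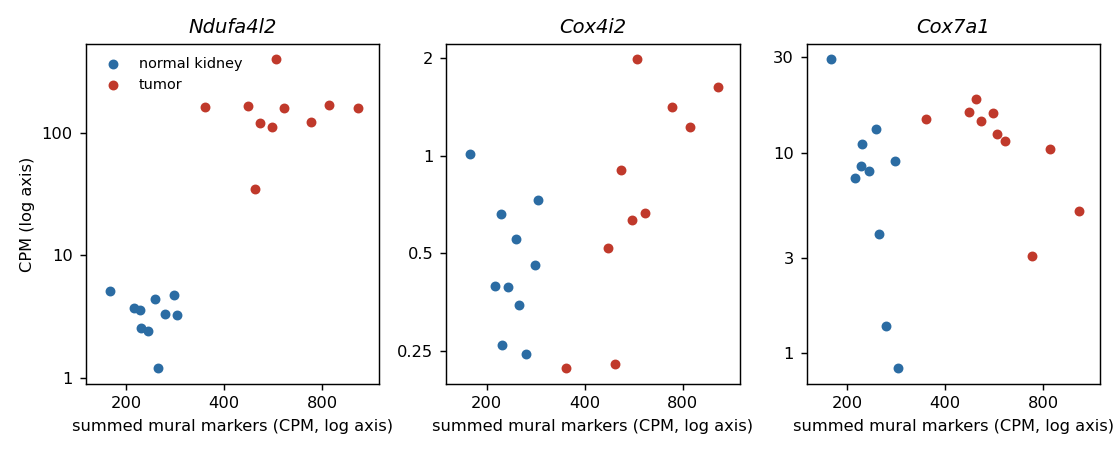
Level of Ndufa4l2, Cox4i2 and Cox7a1 (CPM, log axis) against the summed level of 9 mural markers (CPM, log axis) in each library; blue points are normal kidneys and red points are tumors. Among tumors Cox4i2 went up with the mural level (r = 0.76) and Cox7a1 went down (r = -0.70), and Ndufa4l2 did neither (r = 0.15).

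Of 18 nuclear structural genes, the 5 subunits above included, 16 had enough reads to be tested. Of these, 1 rose (6.25%), 4 fell (25%) and 11 did not pass, beside the 23.6% and 23.8% of all genes, so the share that fell was at the background and the share that rose below it. The group had a median log2 fold change of -0.25 against -0.021 over all genes tested. Without normal kidney 9, 4 rose and 4 fell (25% each, against 26.1% and 25.8% of all genes), and the median was 0.11. The riser was Cox6b2, known as the testis form of a subunit (1.25, SE 0.274, adjusted p = 0.000777; 22.9 CPM against 9.65 CPM). Besides Ndufa4, the form of heart and brown fat, Cox8b, fell by 4.08 on the log2 scale (SE 0.538, adjusted p = 2.35e-06), from 3.72 CPM in normal kidneys to 0.217 CPM in tumors. The brown fat genes Ucp1 (11.2 against 0.0445 CPM) and Cidea (5.31 against 0.111 CPM) also had lower means in tumors. The part of fat tissue in the fall of Cox8b was not tested. Cox7b fell as well (-0.80, adjusted p = 0.0107; -0.48 without normal kidney 9). Thus among the alternative forms Cox6b2 rose and Cox8b fell, and Cox7a1, Cox4i2 and Cox6a2 did not pass. The 3 core subunits of the mitochondrial genome all fell: mt-Co1 by 1.05, mt-Co2 by 2.27 and mt-Co3 by 3.13 on the log2 scale (adjusted p = 0.000372, 0.000121 and 5.89e-08). For mt-Co2 the log2 fold change was -1.68 without normal kidney 9 (adjusted p = 2.78e-05). These 3 were counted at very unequal levels, 16800 CPM of mt-Co1 against 102 CPM of mt-Co2 and 49.3 CPM of mt-Co3 in tumors.

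Of 24 genes for assembly of complex IV or for its joining to supercomplexes, 22 were tested. Of these, 2 rose (9.09%) and 4 fell (18.2%), beside 23.6% and 23.8% of all genes, and 16 did not pass (median -0.02). Without normal kidney 9 the counts were 6 (27.3%), 4 (18.2%) and 12, beside 26.1% higher and 25.8% lower of all genes. Higd1a, a small protein known to bind complex IV at low oxygen, rose from 44.6 to 153 CPM (log2 fold change 1.78, adjusted p = 6.21e-07). Cox7a2l, a relative of Cox7a2, fell by 1.07 on the log2 scale (adjusted p = 0.000284), and by 0.76 without normal kidney 9 (adjusted p = 1.28e-07). Whether its product works in this mouse strain was not tested.

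**Figure D4:**
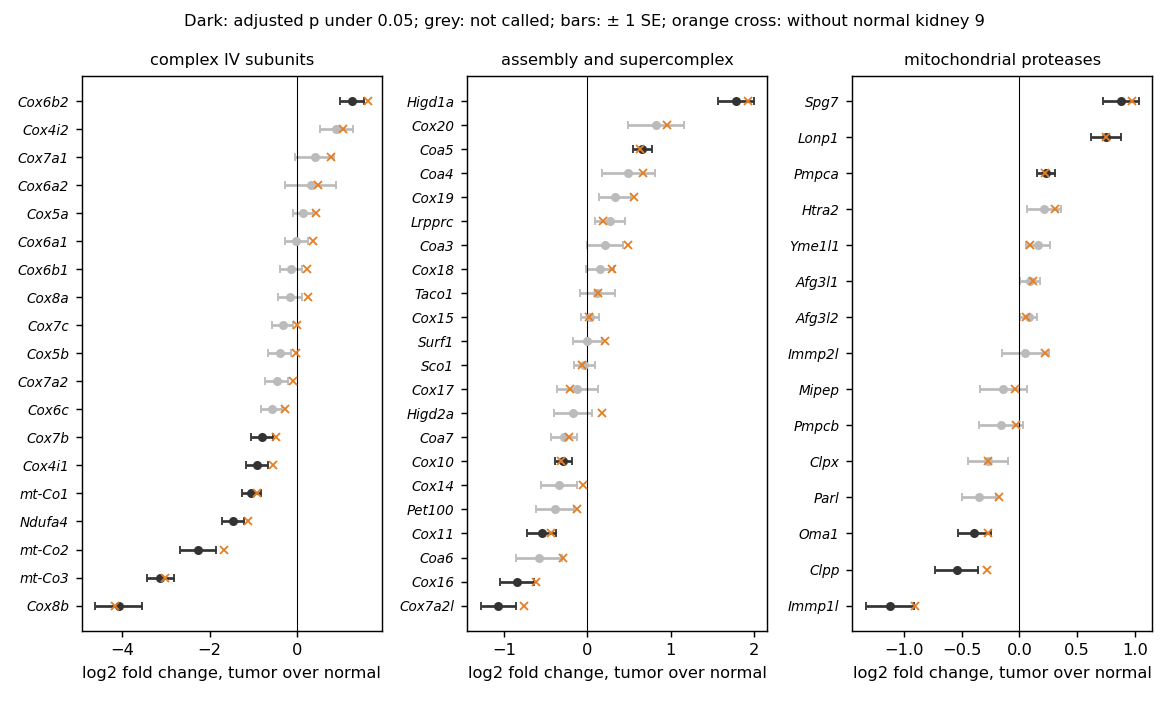
Log2 fold change of tumors over normal kidneys for the tested subunits of complex IV, its assembly and supercomplex factors, and mitochondrial proteases; bars are ± 1 SE, dark points have an adjusted p under 0.05, grey points do not, and orange crosses are the values without normal kidney 9. Most crosses of the subunit panel lie to the right of their points, and Lonp1 and Spg7 head the protease panel at 0.75 and 0.88.

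Among 15 mitochondrial proteases 3 rose and 3 fell (20% each, near the shares of all genes) and 9 did not pass, with a median log2 fold change of 0.05. Beside Lonp1, the inner membrane protease gene Spg7 rose (0.88, SE 0.153, adjusted p = 6.97e-05) and the processing peptidase gene Pmpca rose slightly (0.23, adjusted p = 0.0179). Clpp, the other main matrix protease, fell by 0.54 (adjusted p = 0.022; log2 fold change -0.28 without normal kidney 9) and Oma1 fell by 0.39 (adjusted p = 0.0284), both on the log2 scale, and Immp1l, which cuts targeting signals in the inner membrane, fell by 1.12 (adjusted p = 0.000146). The matrix chaperones did not rise with Lonp1. Of 7, 0 rose and 4 fell (57.1%), beside 23.6% and 23.8% of all genes. Among those that fell were Hspd1 (-0.39, adjusted p = 0.00817) and Trap1 (-0.58, adjusted p = 0.00233), and the median of the 7 was -0.36. Hscb passed as higher without normal kidney 9 (0.87, adjusted p = 0.000258).

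Of 9 HIF subunits and oxygen sensors 3 rose, 3 fell and 3 did not pass, 33.3% in each direction beside 23.6% and 23.8% of all genes. The prolyl hydroxylase genes Egln3 (4.34, adjusted p = 6.96e-13) and Egln1 (1.49, adjusted p = 2.79e-09) and the HIF subunit gene Hif3a (4.36, adjusted p = 3.92e-10) rose. Epas1, which encodes HIF2-alpha, fell by 1.02 (adjusted p = 0.000763), Hif1a by 0.67 (adjusted p = 0.028) and Vhl by 0.49 (adjusted p = 0.00179) on the log2 scale. A list of 6 other HIF targets linked to mitochondrial metabolism rose in full, beside 23.6% of all genes, with a median of 1.74. The list was chosen with earlier results of these data known, so its count is no test of such targets. The 6 were the lactate dehydrogenase gene Ldha (2.04), the mitophagy receptor genes Bnip3 (1.83) and Bnip3l (1.12), Higd1a (1.78), the pyruvate dehydrogenase kinase gene Pdk1 (1.69) and Mxi1 (1.05), a Myc antagonist. Ndufa4l2 exceeded each of them in log2 fold change. The HIF targets Ndufa4l2, Cox4i2 and Lonp1 were not in that list, and of these Cox4i2 did not pass the test. Of 3 known regulators of Cox4i2, Rbpj rose (0.46, adjusted p = 0.0153), Cxxc5 fell by 0.34 on the log2 scale (adjusted p = 0.0114) and Chchd2 did not pass (-0.24, adjusted p = 0.329).

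Genes that resembled each member from library to library were found by Pearson's r of log2 CPM over 20 libraries after subtraction of the group mean. For Ndufa4 these were Atp5l (r = 0.99), Ndufb11 (0.98) and Cox6a1 (0.98), for Cox4i1 they were Ndufb11 (0.98), Cox6a1 (0.98) and Ndufa1 (0.97), and for Cox7a2 they were Cox6b1 (0.99), Ndufs4 (0.99) and Cox8a (0.98). All are genes of the respiratory chain or the ATP synthase. Without normal kidney 9, r for these 9 pairs was between 0.92 and 0.98. Ndufa4l2 was most like Car11, Stx7 and Lynx1 (r = 0.80, 0.79 and 0.77) and Cox4i2 most like Efemp2, Prkar1b and Fkbp9 (0.75, 0.72 and 0.71). Cox7a1 was most like Slc22a18 (0.95), Tmem38a (0.93) and Magix (0.93), and Lonp1 most like Plekhb2, Aars2 and Fam185a (0.86, 0.86 and 0.85). Libraries share depth and RNA quality, so these values describe the 20 libraries only.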

How the data were processed

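RNA of tumors and normal kidney regions had been extracted with Trizol from pulverized frozen tissue, and a sequencing company made poly(A) libraries and sequenced them as read pairs. The authors deposited raw read counts per gene, without normalization, on build mm10 per the submitters' processing notes. The aligner, the counting tool and the use of strand are not given in the sources used here. Groups were taken from the sample labels. The table holds 54532 genes, with 0 rows that name no gene and 0 unused columns of per-sample values.

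Low genes were dropped by filterByExpr at a minimum count of 10, leaving 15354. The groups were compared with edgeR 4.0.16 in R 4.3.3 (TMM factors, quasi-likelihood test, no covariate), with Benjamini-Hochberg adjustment over all genes and a threshold of 0.05. Library values are CPM, or log2 CPM with a prior count of 2, and levels are compared between genes only per kilobase of exon. Ratios had 0.5 counts added to each gene and, like the relations, were tested by two-sided permutation of libraries with 100000 resamples (SciPy 1.17.1, or exact sign flips where pairs were used). The edgeR test was tried on simulated counts of 15142 genes with 200 changed, for this comparison. It recovered 53.1% of genes changed by 1 on the log2 scale and 87.8% of those changed by 2, with 6.12% false calls. In the data 3631 genes were called higher and 3661 lower, far more than were changed in the simulation, so these rates need not hold for the data. Alternatives were other scalings, DESeq2 1.42.0, limma-voom (limma 3.58.1) with quality weights, no filter, a replicate block, and leaving out each library.

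The 7 genes are given in full. List genes are given as counts, with values for those past the threshold and a log2 fold change of 1 in either direction, and some others are named to complete a count of 5 or fewer or to set them beside a member. For each member the 3 most similar protein-coding genes with a mean of at least 1 CPM are named. The members and lists were chosen with earlier results of these data known. Promoter windows and their motifs are from RefSeq.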

Additional observations from a re-analysis of the deposited data

Results flagged for a closer look

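A gap test within each group of 10 libraries was run on the log2 CPM of the 7 genes and on the 3 log2 ratios. It asks whether the highest or lowest library stands apart from its neighbour by more of the group's range than Dixon's critical value allows, and chance alone flags about 1 in 20 groups. Of 20 groups 5 were flagged. Normal kidney 9 was flagged for Ndufa4, with 10.10 on the log2 CPM scale against 8.38 in the next library, for Cox4i1 (11.21 against 9.44) and for Cox7a2 (9.43 against 7.58). Its ratios of isoforms were not flagged. Tumor 2 was flagged for its low Ndufa4l2, with 5.13 against 6.82 in the next tumor. Normal kidney 5 was flagged for its low Ndufa4l2, with 0.37 against 1.33 in the next normal kidney.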

How the results depend on the processing

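The log2 fold changes of Ndufa4, Ndufa4l2, Cox4i1 and Lonp1 kept their direction and stayed past the threshold under all 28 alternatives. Ndufa4 ranged from -1.59 to -1.09, Ndufa4l2 from 5.30 to 5.68, Cox4i1 from -1.03 to -0.52 and Lonp1 from 0.63 to 0.81. DESeq2 and limma-voom with quality weights put Cox4i1 at -0.54 and -0.62. Quality weights gave normal kidney 9 a weight of 0.0721 and tumor 7 one of 0.162. The next lowest were normal kidney 7 (0.18) and normal kidney 5 (0.238), which were both low in Cox7a1. Genes that had not passed passed under some settings. With quality weights Cox4i2 was at 0.75 (adjusted p = 0.0469) and Cox7a1 at 0.63 (adjusted p = 0.035), with library totals Cox7a2 was at -0.51 (adjusted p = 0.0376), and with normal kidney 9 and tumor 7 both left out Cox4i2 was at 0.95 (adjusted p = 0.0408). Leaving out each library in turn, Cox4i2 ranged from 0.72 to 1.05 (adjusted p from 0.0238 to 0.121). With upper quartile factors 3000 genes were called higher and 4650 lower. The 3 ratios passed under 23 alternatives each, and leaving out the division by length cannot change a difference of log ratios. It does change the shares of a pair.

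The relations to the mural level were the least stable. With the mean of standardized markers, Ndufa4l2 in normal kidneys gave r = 0.05 and Cox7a1 in normal kidneys r = -0.42 (adjusted p = 0.458). Without Cspg4, Ndufa4l2 in tumors gave r = -0.01, Cox4i2 in tumors 0.69 and Cox7a1 in normal kidneys -0.72. Without normal kidney 9 and tumor 7, Ndufa4l2 in normal kidneys gave r = 0.11, Cox4i2 in normal kidneys 0.21, Cox4i2 in tumors 0.74 and Cox7a1 in normal kidneys -0.61. The cause was not tested.

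Tumors and normal kidneys share the numbers 1 to 10, but the labels do not say that a number marks a mouse. Deviations of same-numbered libraries from their group means correlated between -0.14 and 0.38, over 0.1 in 9 of 10 pairs, and 8 of 10 tumors were most like the normal kidney of the same number. With the replicate block, the log2 fold changes were -1.28 for Ndufa4, 5.44 for Ndufa4l2, -0.71 for Cox4i1, 0.77 for Cox4i2, 0.82 for Cox7a1, -0.27 for Cox7a2 and 0.73 for Lonp1, with the same calls, and 3979 genes were called higher and 3886 lower. The 3 ratios under the block (exact sign flips of paired differences) gave p = 0.00195, the smallest possible, for Ndufa4l2 and Cox7a1 and p = 0.00781 for Cox4i2. Low depth limits Cox4i2 most, with as few as 4 reads in a library.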
